A study of Homo sapiens with 6 samples.

Results

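The type II MAGE genes are a branch of the melanoma antigen family. They were followed here through 6 gene symbols, MAGED1, MAGED2, MAGEH1, MAGEF1, NDN and NDNL2, out of 26255 symbols in the table of expression values. The members were chosen by name around MAGED1, which had been picked because it was among the largest falls between the groups compared here, so their differences between the groups are a description here: their fold changes and calls are given without a p-value, and nothing is concluded from the calls. All cells were MDA-MB-231, a human breast cancer line. They had been infected with lentivirus carrying a control short hairpin RNA (shNT) or a hairpin against GPR81 (shGPR81), a receptor for lactate, and selected with puromycin, with 3 libraries per group. The study made lines with 2 different GPR81 hairpins, and the labels do not say which of them was sequenced, nor whether the libraries of a group came from separate cultures. Any p-value therefore measures the spread between these libraries, which may be technical.

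MAGE proteins share a conserved MAGE homology domain, through which they bind RING-type ubiquitin ligases and alter what the ligases act on. Type I MAGE genes lie on the X chromosome and are normally active in the germ line, and many tumours switch them on. Type II genes are active in many normal tissues, especially in brain. MAGED1, also called NRAGE or Dlxin-1, binds the neurotrophin receptor p75, the ligase Praja-1 and the nuclear receptor ROR alpha. MAGED2 is known for a transient form of antenatal Bartter syndrome. MAGEF1 works with the ligase NSMCE1 on the iron-sulfur assembly factor MMS19. NDNL2, today named NSMCE3 or MAGEG1, is a subunit of the SMC5/6 complex that guards chromosomes. NDN encodes necdin, an imprinted growth suppressor of the Prader-Willi region. MAGEH1 is a small member that binds p75.

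By the annotation of GRCh37, the members sit on 3 chromosomes. MAGED1 spans chrX:51546103-51645450 on the plus strand and has 10 annotated transcripts, 4 of them protein-coding with 2701 to 2875 bases. MAGED2 lies at chrX:54834032-54842448 and MAGEH1 at chrX:55478560-55479999, both on the plus strand. MAGEF1 lies at chr3:184428152-184429852, NDN at chr15:23930547-23932452 and NDNL2 at chr15:29557193-29562026, all on the minus strand. MAGEH1, MAGEF1, NDN and NDNL2 have 1 annotated transcript each. MAGED1 has an outer and an inner RefSeq start. The 250 bases before both starts are shown because type I MAGE genes are known to be controlled by methylation of the cytosine in CG pairs. Beside them stand the windows of MAGEE1, a type II relative on the X chromosome that was also lower, and of MAGEF1, a member with near-equal means. The sequences come from RefSeq (GRCh38.p14) and each was found once, without a mismatch, in GRCh37 at the position given. CG pairs are in capitals.
MAGED1 outer start, chrX:51545922-51546171, plus strand: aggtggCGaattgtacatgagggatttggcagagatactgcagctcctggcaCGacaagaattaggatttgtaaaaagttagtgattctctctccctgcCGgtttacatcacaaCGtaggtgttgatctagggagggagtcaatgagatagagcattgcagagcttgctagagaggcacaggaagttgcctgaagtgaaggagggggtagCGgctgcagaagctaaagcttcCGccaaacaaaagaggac
MAGED1 inner start, chrX:51636469-51636718, plus strand: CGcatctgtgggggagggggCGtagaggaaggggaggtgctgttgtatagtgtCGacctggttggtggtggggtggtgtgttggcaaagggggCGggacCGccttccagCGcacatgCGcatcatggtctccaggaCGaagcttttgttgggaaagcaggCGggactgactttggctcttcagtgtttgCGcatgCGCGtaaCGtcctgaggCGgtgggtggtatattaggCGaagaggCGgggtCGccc
MAGEE1, chrX:75647853-75648102, plus strand: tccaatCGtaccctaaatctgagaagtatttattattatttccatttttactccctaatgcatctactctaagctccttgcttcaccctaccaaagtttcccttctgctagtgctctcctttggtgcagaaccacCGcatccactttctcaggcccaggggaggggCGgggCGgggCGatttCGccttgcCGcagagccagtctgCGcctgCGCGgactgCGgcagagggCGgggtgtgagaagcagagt
MAGEF1, chr3:184429853-184430102, minus strand: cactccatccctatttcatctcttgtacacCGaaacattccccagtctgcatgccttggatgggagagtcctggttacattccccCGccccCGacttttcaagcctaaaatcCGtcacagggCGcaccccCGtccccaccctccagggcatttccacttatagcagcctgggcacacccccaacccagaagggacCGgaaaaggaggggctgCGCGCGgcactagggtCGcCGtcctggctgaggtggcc

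The inner MAGED1 window held 17 CG pairs and the outer one 6, where the median of 35116 windows of this length in RefSeq was 11. The windows of MAGEE1 and MAGEF1 held 12 each, and that of NDN held 30. The full cAMP response element TGACGTCA, searched on both strands, was in none of the 8 windows that 6 of the 7 genes had in RefSeq, and in 1.65% of all windows. GGGCGG, the GC box, searched on both strands, was found once in the inner MAGED1 window, not in the outer one and 3 times in that of MAGEE1, where some of its letters are part of CG pairs. It was in 42.6% of all windows. These matches are letters in a window, not sites. Methylation and protein binding were not measured here.

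Values are the authors' FPKM, fragments scaled by transcript length and by library size. Comparing levels between genes relies on the lengths used, which are not given. HCAR1, the gene of GPR81, was at 0.968, 1.02 and 1.36 FPKM in shNT and at 0.978, 0.891 and 0.396 FPKM in the libraries labelled shGPR81, so the groups overlapped. It changed by -0.57 (SE 0.31) on the log2 scale and did not pass the test (adjusted p = 0.38, limma with Benjamini-Hochberg adjustment). Leaving out 1 library at a time, the difference lay between -0.78 and -0.22, the latter without shGPR81 replicate 3. Its reads, recovered from the FPKM as described below for the members, were 37, 40 and 52 in shNT and 40, 36 and 16 in the other group, a ratio of 0.677 in the direction of the label (95% Clopper-Pearson limits 0.513 and 0.892, which cover counting error and not the spread between libraries). The study checked its lines by RT-qPCR and western blotting, which are not part of these files, so shGPR81 is used below as the label of the libraries. Over all genes, 228 were called lower and 137 higher.

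In shNT cells MAGED2 was the highest member with 37.5, 43.4 and 41.4 FPKM in replicates 1 to 3. MAGEF1 followed with 27.3, 28.5 and 26.9 FPKM. NDNL2 was at 11.5, 12.4 and 14.1 FPKM. These 3 genes lay above the other members in every shNT library, and their ranges did not overlap with each other.

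MAGED1 came next in shNT cells, with 8.41, 10.3 and 9.94 FPKM, a mean of 9.54 ± 0.992 FPKM (SD, n = 3). MAGEH1 was lower, at 3.36, 4.39 and 4.27 FPKM. NDN was listed at 0 in all 6 libraries, and a 0 in this table may also be a failed estimate. MAGED1 stood above 53.4% of the 14349 tested genes in shNT cells, MAGED2 above 83.7% and MAGEH1 above 36.0%. A gene was tested when it reached 0.1 FPKM in at least 3 of the 6 libraries, and 5 of the 6 members passed this filter.

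In the libraries labelled shGPR81 the order of the members differed at its lower end. MAGED1 was at 0.998, 0.946 and 0.432 FPKM, a mean of 0.792 ± 0.313 FPKM (SD, n = 3). All 3 values lay below the lowest shNT value of 8.41 FPKM, and the mean was 8.31% of the shNT mean. In bulk RNA, fewer cells with the transcript and less of it per cell cannot be told apart. MAGEH1 was at 2.34, 2.59 and 1.94 FPKM, so it stood above MAGED1 in every library labelled shGPR81 and below it in every shNT library. MAGED2 stayed the highest member with 36.0, 37 and 35.6 FPKM. MAGEF1, at 29.0, 27.6 and 25.1 FPKM, and NDNL2, at 13.3, 12.8 and 14.8 FPKM, came after it, in the same order as in shNT.

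**Figure D1:**
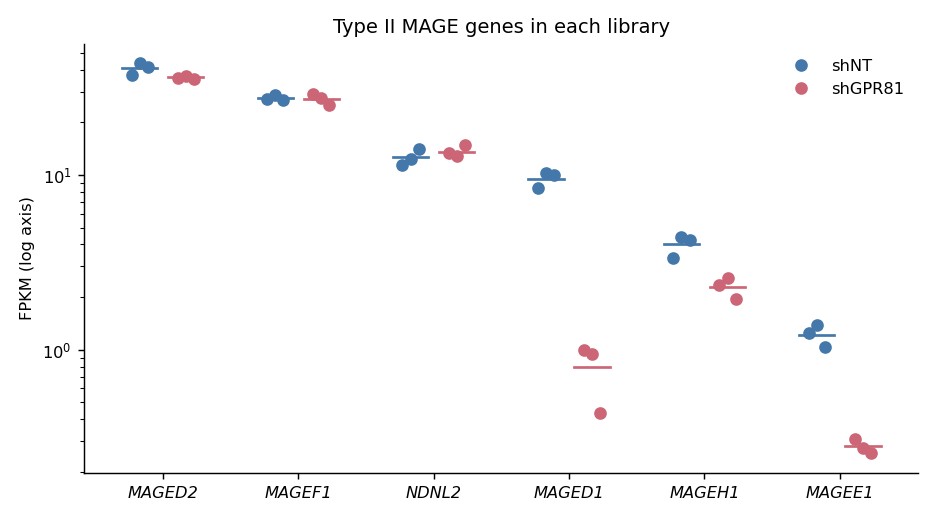
FPKM on a log axis of the 5 members above 0 and of MAGEE1 in each library, with 3 points per group and a bar at the group mean. MAGED1 falls from between 8.41 and 10.3 FPKM in shNT to between 0.432 and 0.998 FPKM in shGPR81, below MAGEH1, while MAGEF1 and NDNL2 overlap between the groups.

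The fold changes were taken on log2(FPKM + 0.1), an offset that shrinks the change of low genes. MAGED1 had a log2 fold change of -3.50 (SE 0.27), the 9th lowest of all 14349 tested genes and the 8th lowest of the 11677 that averaged 1 FPKM or more. MAGEH1 had -0.78 (SE 0.15) and MAGED2 -0.17 (SE 0.06). MAGEF1 had -0.02 (SE 0.07) and NDNL2 0.11 (SE 0.10), and for both the groups overlapped. MAGED1 and MAGEH1 met both conditions for a call in limma over all genes, adjusted p below 0.05 and more than 1.5-fold, so 2 of the 5 tested members were called lower, where 1.59% of all tested genes were. No member was called higher, against 0.955% of all tested genes. For MAGED1, MAGED2 and MAGEH1 the libraries labelled shGPR81 all lay below the shNT libraries, as they did for 12.7% of tested genes. Since the members were chosen around MAGED1 with this contrast known, nothing is read from these counts. The median log2 fold change of the 5 members was -0.17, and that of all tested genes was 0.0081.

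**Figure D2:**
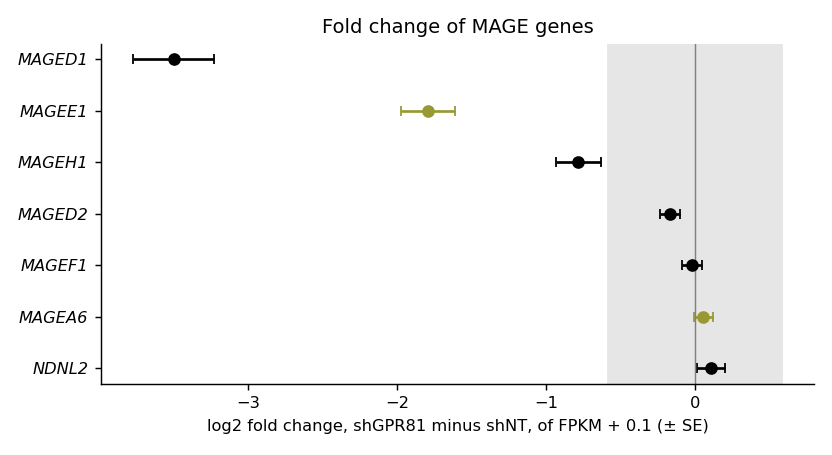
Log2 fold change (libraries labelled shGPR81 minus shNT, FPKM + 0.1) with its SE for the 5 tested members in black and for MAGEE1 and the type I gene MAGEA6 in olive, with changes below 1.5-fold shaded. MAGED1 (-3.50), MAGEE1 (-1.79) and MAGEH1 (-0.78) lie outside the shading, and the other 4 genes lie inside it.

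Relative to its group mean, MAGED1 varied more among the libraries labelled shGPR81 than in shNT. As a share of its shNT mean it stood at 10.5%, 9.92% and 4.53% in replicates 1 to 3 of shGPR81, against 88.2% to 108% in shNT. The coefficient of variation was 39.5% in shGPR81 and 10.4% in shNT, while the SD was smaller in shGPR81, 0.313 against 0.992 FPKM. By the estimate given below, MAGED1 rests there on 15 to 37 reads per library, against 277 to 369 in shNT. The part of counting error in this spread was not tested. Replicate 3, the lowest, was also the lowest of the shGPR81 libraries for MAGED2 (87.4% of the shNT mean), MAGEH1 (48.4%), MAGEF1 (91.0%) and the relative MAGEE1 (20.9%), while NDNL2 was highest there (117%). HCAR1 was lowest in the same library, at 35.5% of its shNT mean. The part of HCAR1 in the MAGED1 values was not tested.

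With MAGED1 divided by MAGED2, another gene of the MAGED branch, the ratio of FPKM was 0.224, 0.236 and 0.240 in shNT and 0.0277, 0.0255 and 0.0121 in the libraries labelled shGPR81. This ratio within a library does not depend on how the library was scaled. The same ratio for MAGEH1 was between 0.0897 and 0.103 in shNT and between 0.0544 and 0.0698 in the other group. MAGED1 made up 10.1% of the summed FPKM of the members in shNT and 0.982% in the libraries labelled shGPR81. The sum itself was 88.0, 99.0 and 96.6 FPKM in shNT and 81.7, 80.9 and 77.9 FPKM in the other group.

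The files used here hold no read numbers. For MAGEH1, MAGEF1, NDNL2 and MAGEE1, which have 1 transcript each, the 6 FPKM were whole multiples of 1 step once the scale of each library was removed, and the multiples were taken as reads, with relative depths of 1.0 to 1.07 between libraries. MAGEH1 rested on 59, 79 and 75 reads in shNT and on 44, 48 and 36 reads in the libraries labelled shGPR81. Scaled for depth, the second group held 0.571 of the reads of the first (exact Clopper-Pearson 95% limits 0.455 and 0.714, which cover counting error only). The reads of MAGEF1, 1698 in shNT and 1765 in the other group, gave a ratio of 0.987 (interval 0.923 to 1.06). NDNL2 lies inside FAM189A1, a gene of the same strand that was itself listed at 0. It had 771 and 874 reads and a ratio of 1.08 (interval 0.976 to 1.19). MAGED1 has several transcripts and gave no such step. The scale was the median of MAGEH1, MAGEF1 and MAGEE1 in each library, 12.2 to 13.1 reads per FPKM and kb of annotated transcript. On it, the FPKM of MAGED1 would stand for 277 to 369 reads in the shNT libraries. In the libraries labelled shGPR81 they would stand for 33 to 37 reads in replicates 1 and 2 and for 15 or 16 in replicate 3. NDNL2 was not used for the scale. With its annotated 4834 bases it gave fewer reads per FPKM and kb than the scale. In shNT replicate 1 it had 231 reads at 11.5 FPKM, where MAGEF1, annotated with 1701 bases, had 556 reads at 27.3 FPKM. The place of NDNL2 among the members therefore depends on the length behind its FPKM, which is not known. The MAGED1 numbers are estimates, since the transcript in use is not known and annotated lengths may differ from those behind the FPKM.

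The log2 fold change of MAGED1 lay between -3.69 and -2.57 under 13 other settings of the same 6 libraries. Its call was the same in all of them, which is no independent evidence, since the gene was picked for its fall in these libraries. The smallest change, -2.57, came with an offset of 1 FPKM in place of 0.1. Without shGPR81 replicate 3 it was -3.16. For MAGEH1, leaving out a library kept the call in 1 of 6 fits, the one without shNT replicate 1, and ended it in the 5 others. It was also lost when the filter on low genes was dropped. Its log2 fold change stayed between -0.90 and -0.61 throughout.

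**Figure D3:**
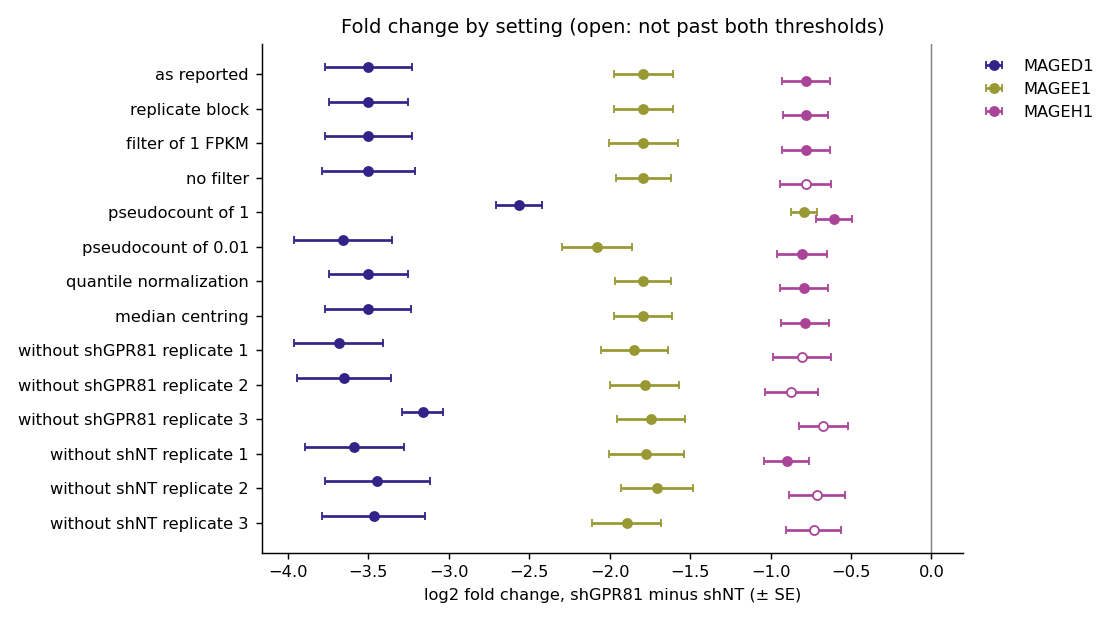
Log2 fold change with its SE for MAGED1, MAGEE1 and MAGEH1 as reported and in the 13 other settings, filled where both thresholds were passed. MAGED1 and MAGEE1 are filled in every row, and MAGEH1 is open without the filter on low genes and in 5 of the 6 rows that leave out a library.

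The other type II genes were a list of 6, MAGED4, MAGED4B, MAGEE1, MAGEE2, MAGEL2 and TRO. MAGEE1 alone was above 0, and it was lower in the libraries labelled shGPR81. The gene, on chrX:75648103-75651735, encodes a protein with MAGE homology domains that binds dystrobrevin. It was at 1.24, 1.38 and 1.04 FPKM in shNT and at 0.310, 0.275 and 0.255 FPKM in the other group, so the groups did not overlap. This is -1.79 (SE 0.18) on the log2 scale, with an adjusted p of 0.0024 in limma. The values stand for 60, 68 and 50 reads and for 16, 14 and 13 reads, a ratio of 0.229 (95% interval 0.160 to 0.322). MAGEE1 passed both thresholds under all 13 other settings, with log2 fold changes between -2.08 and -0.79, the smallest with an offset of 1 FPKM. These settings use the same 6 libraries, and the list was chosen with earlier results of these data known. Neither the p-value nor this count is therefore independent evidence. The 5 others were listed at 0 in every library, and MAGED4 and MAGED4B are near-identical copies whose reads the counting may not be able to place.

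Most type I MAGE genes were listed at 0. Of 26 listed, 21 were at 0 in every library and 2 were tested, with 0 called by limma and 0 at an unadjusted p below 0.05. Of all tested genes 19.5% had an unadjusted p below 0.05, and the counts at that level here and below are to be read against this share. MAGEA6 was at 29.0, 28.6 and 31.1 FPKM in shNT and at 30.2, 29.4 and 32.7 FPKM in the other group, a difference of 0.06 (SE 0.06) in log2 (adjusted p = 0.70, limma). MAGEA3, its near-identical neighbour in sequence, was at 0.252 ± 0.179 and 0.180 ± 0.120 FPKM (SD, n = 3), and the split of reads between both copies is uncertain. Of 28 other cancer-testis antigens in the table, 25 were at 0 in all libraries and 0 of the 2 tested were called by limma or had an unadjusted p below 0.05. Among them, CT83 was at 11.4 ± 2.34 and 11.9 ± 1.64 FPKM.

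The genes around the members were compared next, taking the 5 nearest protein-coding genes with a value on each side. All 10 neighbours of MAGED1, between 0.396 Mb before and 1.13 Mb after its start, were listed at 0 in every library. Several of them, such as MAGED4, MAGED4B and XAGE2, belong to families of tumour antigens, and some are near-identical copies. No neighbour of MAGED1 could therefore be compared between the groups. Of the 5 tested neighbours of MAGED2, 0 were called by limma and 2 had an unadjusted p below 0.05, and their median log2 fold change was 0.07. MAGEH1 had 6 tested neighbours with a median of -0.27, of which 0 were called and 0 had an unadjusted p below 0.05. Among these, the closest, USP51, at 0.223 FPKM in shNT and 0.119 FPKM in the other group, changed by -0.61 in log2 (SE 0.38, adjusted p = 0.45, limma) and UBQLN2, 1.11 Mb away, by 0.00077. MTRNR2L10, a near copy of a mitochondrial gene, had the lowest value of the 6, -1.27 (SE 0.59, adjusted p = 0.30). Of the 6, 1 was lower without overlap of the groups and 0 were higher, where 12.7% of all tested genes were lower without overlap. It was FAM104B, at 5.32 FPKM in shNT and 4.09 FPKM in the other group, or -0.40 in log2 (SE 0.19, adjusted p = 0.29, limma). MAGEE1 had 7 tested neighbours with a median of -0.03, of which 0 were called and 1 had an unadjusted p below 0.05. Around MAGEF1 and NDNL2, 7 and 3 neighbours were tested, with a median of -0.05 for both, 0 calls, and 2 and 0 genes at an unadjusted p below 0.05. NDN had 4 tested neighbours with a median of -0.06, 0 calls and 0 at that unadjusted p.

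**Figure D4:**
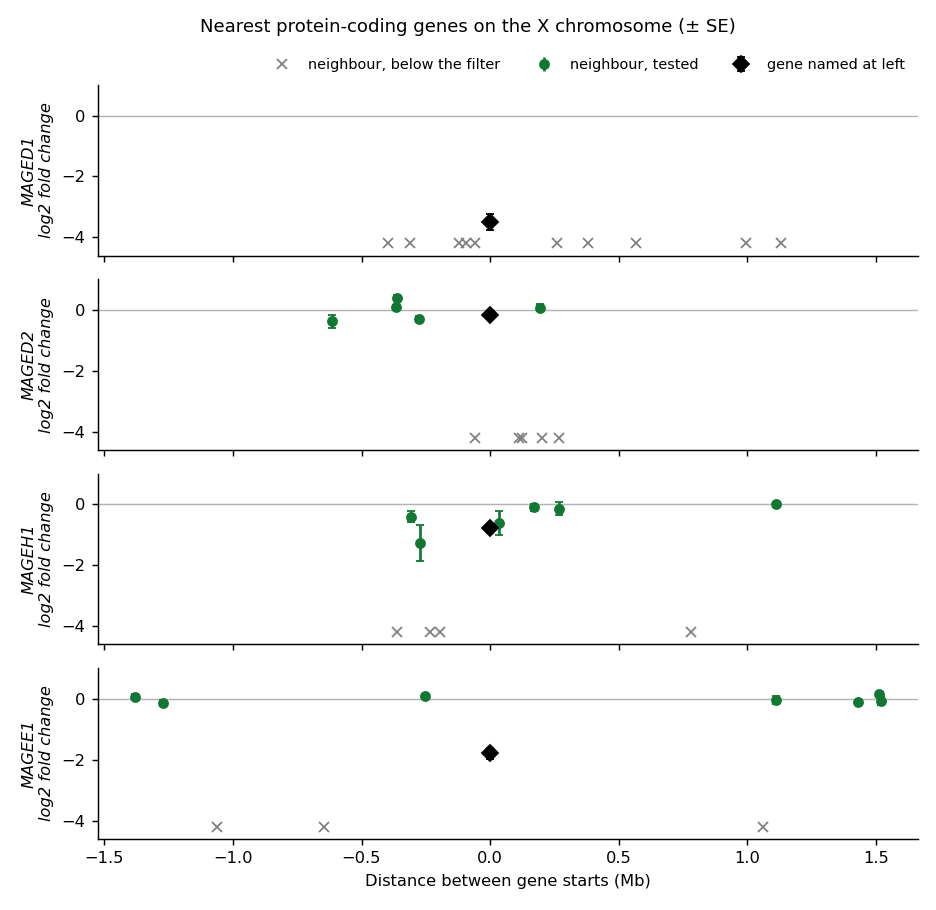
Log2 fold change with its SE against the distance between gene starts for the 10 protein-coding genes nearest to MAGED1, MAGED2, MAGEH1 and MAGEE1, with crosses at the foot for genes below the filter and a diamond for the gene itself. MAGED1 has 10 crosses and no tested neighbour, and the tested neighbours of MAGEE1 lie near 0 while MAGEE1 is at -1.79.

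Across the X chromosome, 421 tested protein-coding genes with a single locus had a median log2 fold change of 0.00045. Of these, 10 were called lower, or 2.38%, and 3 higher, or 0.713%, against 1.59% and 0.955% of all tested genes. MAGED1 had the lowest log2 fold change of the 421, and 12 genes of the chromosome lay below MAGEH1. On chromosome 3 the median was -0.02 over 711 genes, and on chromosome 15 it was -0.02 over 398 genes.

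The genes whose values over the 6 libraries lay closest to those of MAGED1 were found by the Euclidean distance between log2 values centred on each gene's mean, among genes averaging 1 FPKM or more. Among the 5 closest were EEF1A2 on chromosome 20 (a distance of 1.34), TFF3 and TFF1 on chromosome 21 (1.40 and 1.45) and GABBR2 on chromosome 9 (1.46). MAGEH1 lay at 3.38, which is rank 88 of 11676, and MAGED2 at 4.16. MAGEE1 averaged below 1 FPKM and so was outside this set, without a rank. Its distance, taken in the same way, was 2.24. All genes share the same 6 libraries, so the distances are a description.

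Proteins that MAGED1 binds were taken as a list of 13 genes, 8 of which were tested. In limma 0 were called in either direction, against 2.54% of all tested genes, and 2 had an unadjusted p below 0.05. In 2 of the 8 the groups did not overlap, both lower, as in 12.7% of all tested genes, and the median log2 fold change was -0.08. NGFR, the p75 receptor, was at 13.6, 16.5 and 18.4 FPKM in shNT and at 14, 16.6 and 17.5 FPKM in the libraries labelled shGPR81. The groups overlapped and differed by -0.0091 (SE 0.13) in log2 (adjusted p = 0.98, limma). PJA1, the Praja-1 ligase, was at 10.3 ± 0.341 and 9.09 ± 0.117 FPKM (SD, n = 3), or -0.17 in log2 (adjusted p = 0.18, limma). XIAP, an inhibitor of caspases, was at 4.11 ± 0.422 and 3.83 ± 0.291 FPKM. AATF, at 99.5 ± 1.15 and 96.4 ± 3.33 FPKM, was the most abundant partner. The netrin receptors UNC5A and UNC5B and the serotonin transporter gene SLC6A4 were below the filter.

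RORA, the gene of the nuclear receptor that MAGED1 binds, was the partner with the largest difference. It was at 0.540, 0.568 and 0.401 FPKM in shNT and at 0.330, 0.216 and 0.183 FPKM in the libraries labelled shGPR81. All of the second group lay below the first, but the log2 fold change of -0.83 (SE 0.25) did not pass the test (adjusted p = 0.12, limma). Of 16 tested ROR and clock genes, 0 were called by limma, 3 had an unadjusted p below 0.05 and the median log2 fold change was 0.00014. ARNTL, a clock activator that ROR proteins drive, was at 3.6 ± 0.265 and 4.05 ± 0.185 FPKM (adjusted p = 0.41). NR1D1, which encodes the repressor REV-ERB alpha, was at 4.86 ± 0.769 and 4.24 ± 0.345 FPKM (adjusted p = 0.53). NFIL3 was at 17.8 ± 0.833 and 21.3 ± 0.713 FPKM (adjusted p = 0.058). NPAS2, a paralog of CLOCK, was at 30.2 ± 0.679 and 37.9 ± 0.588 FPKM. It passed the threshold on adjusted p (0.0095, limma) with a log2 fold change of 0.33, which is less than 1.5-fold.

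Of 9 neurotrophin receptors, ligands and adaptors, 5 were tested, 0 were called by limma and 2 had an unadjusted p below 0.05. SORT1, the co-receptor of p75, was at 20.2 ± 0.859 and 20.3 ± 1.07 FPKM (SD, n = 3). NGFRAP1, an adaptor that binds p75, was at 209 ± 8.66 and 239 ± 7.58 FPKM, or 0.19 in log2 (adjusted p = 0.085, limma). Of the 6 tested genes for ligases and the deubiquitinase USP7 that bind MAGE proteins, 0 were called by limma and 2 had an unadjusted p below 0.05. The most abundant was TRIM28, the partner of several type I proteins, at 224 ± 26.3 and 218 ± 15.2 FPKM. The partner of MAGEF1 and NDNL2, NSMCE1, was at 46.4 ± 3.27 and 46.7 ± 3.46 FPKM.

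The SMC5/6 complex, to which the NDNL2 protein belongs, had 7 tested genes, 0 calls in limma, 1 gene at an unadjusted p below 0.05 and a median log2 fold change of 0.09. Its core genes SMC5 and SMC6 were at 10.6 ± 2.26 and 10.3 ± 0.949 FPKM and at 22.3 ± 2.43 and 23.8 ± 1.43 FPKM in shNT and in the other group. Cytosolic iron-sulfur assembly and its client enzymes, listed for MAGEF1, had 15 tested genes and a median of 0.06. MMS19 itself was at 38.1 ± 1.91 and 40.2 ± 1.09 FPKM (adjusted p = 0.50, limma). NDOR1, a reductase that passes electrons to this machinery, was the 1 gene of the list that was called. It rose from 5.76, 7.49 and 6.48 FPKM to 10.6, 9.62 and 10.01 FPKM, or by 0.62 in log2 (SE 0.11, adjusted p = 0.018). With a library left out the call held in 2 of 6 fits, those without shNT replicate 2 or shNT replicate 3.

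MAGED2 partners and regulated proteins had 6 tested genes, 0 calls in limma and 1 gene at an unadjusted p below 0.05. GNAS, which encodes the stimulatory G protein subunit that MAGED2 is known to bind, was at 708 ± 68.5 and 557 ± 33.6 FPKM (SD, n = 3), or -0.34 in log2 (adjusted p = 0.063, limma). E2F1, a target of necdin, was at 38.2 ± 3.57 and 28.2 ± 2.17 FPKM, or -0.43 in log2 (adjusted p = 0.033, limma), which is less than 1.5-fold. Both genes lie on chromosome 20, where the median log2 fold change of 349 tested genes was -0.39. Whether they moved apart from that chromosome was not tested. The other tested partners of necdin, EID1, HIF1A and E2F4 among them, were not called, and 2 of the 8 tested had an unadjusted p below 0.05. In the Prader-Willi region, MKRN3 and UBE3A were the 2 tested genes of 8, with 0 calls in limma and 0 at an unadjusted p below 0.05, and NDN, MAGEL2, SNRPN and 3 further genes were listed at 0.

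Enzymes of DNA methylation were included because of their known part in silencing type I MAGE genes. All 7 were tested, 0 were called by limma and 3 had an unadjusted p below 0.05, against 19.5% of all tested genes, with a median log2 fold change of -0.20. DNMT1, which maintains methylation, was at 66.6 ± 2.61 and 68.0 ± 2.69 FPKM (SD, n = 3). The groups did not overlap for DNMT3A, DNMT3B and TET3, which were lower in the libraries labelled shGPR81, nor for TET1, which was higher. This compares with 12.7% of all tested genes without overlap and lower, and 12.9% without overlap and higher. Their log2 fold changes were -0.26, -0.26, -0.30 and 0.19, with adjusted p between 0.14 and 0.62 (limma), and DNMT3B lies on chromosome 20.

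**Figure D5:**
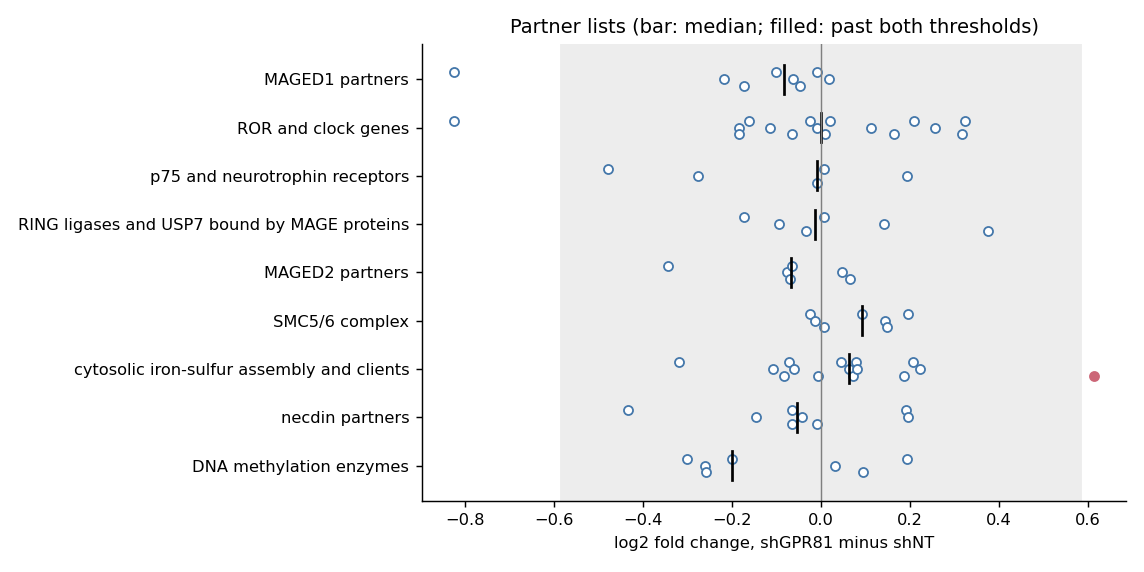
Log2 fold change of each tested gene in 9 lists of partner and pathway genes, with a bar at the median of the list and changes below 1.5-fold shaded. The medians lie between -0.20 and 0.09, NDOR1 is the 1 filled point at 0.62, and the open points at -0.83 are both RORA, which is on 2 lists.

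The cell line was checked by its markers. The mesenchymal genes VIM, CD44, CAV1, AXL and MSN were at 153 to 4135 FPKM in the group means, while ESR1, PGR and CDH1, which mark luminal breast cells, were listed at 0. ERBB3, a luminal marker, rose from 1.43 ± 0.162 to 2.69 ± 0.611 FPKM (SD, n = 3, adjusted p = 0.035, limma), a call that held in 1 of the 6 fits with a library left out, the one without shNT replicate 1. PTPRC, a leukocyte marker, was below 0.1 FPKM in both groups, CDH5, an endothelial one, was at 0, and CD68, which tumour lines also express, was at 88.9 and 118 FPKM (adjusted p = 0.069). Relative depth lay between 1.0 and 1.07 and the genes above 0 between 15710 and 15913 per library.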

How the data were processed

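RNA of 6 libraries was sequenced with the TruSeq stranded mRNA kit as single-end reads of 75 bases. Per the labels, the authors used TopHat2 2.0.13, Bowtie2 2.2.3, SAMtools 0.1.19 and Cuffnorm 2.2.1. The study's methods name the human genome hg19 (GRCh37), the labels a mouse build, and the gene symbols are human. The deposited values are FPKM, 1 per gene symbol and library, and the annotation is not given in the sources used here. Depth is known only relatively, from whole multiples of 1 step (tolerance 3e-05, at most 1000 reads).

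The groups were compared in limma 3.58.1 under R 4.3.3 (lmFit, eBayes with trend) on log2(FPKM + 0.1). The 14349 genes that reached 0.1 FPKM in 3 libraries entered the fit, p-values were adjusted by Benjamini-Hochberg over all of them, and the fit was checked on simulated data. A gene was called at an adjusted p below 0.05 and over 1.5-fold. Alternatives were a replicate block, 6 fits each without 1 library, a filter of 1 FPKM or none, offsets of 1 and 0.01, quantile normalization and median centring. Positions are from GENCODE release 44 on GRCh37. The members and all lists were chosen with earlier results of these data known. Named are all members, called list genes, binding partners, up to 3 abundant genes per list and the 5 genes most like MAGED1, of which 4 are given, since some genes are not reported here. Genes named for their difference alone, such as NPAS2, E2F1 and the DNA methylation enzymes, were picked after their values were seen.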

Additional observations from a re-analysis of the deposited data

How the results depend on the processing

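With an offset of 1 FPKM, 142 genes were lower and 75 higher, against 228 and 137, and with each library left out in turn 110 to 238 were lower and 68 to 156 higher. Lower genes numbered 110 without shNT replicate 2, 141 without shGPR81 replicate 1, 143 without shGPR81 replicate 2 and 146 without shNT replicate 3. Higher genes numbered 74 without shGPR81 replicate 1, 68 without shGPR81 replicate 2, 84 without shGPR81 replicate 3 and 83 without shNT replicate 2. Of the members, 1 was lower without the filter on low values and 1 to 2 with a library left out, and MAGED1 was among them each time. List genes called higher, NDOR1 and ERBB3, numbered 2 as reported, 1 without the filter, 1 with an offset of 1 FPKM and 0 to 1 with a library left out. NGFR, near 0 throughout, had log2 fold changes of -0.126 to 0.088 with a library left out, above 0 without shGPR81 replicate 1 (0.085), shNT replicate 2 (0.011) and shNT replicate 3 (0.088). The cause of these changes was not tested. With the replicate number as a block, 197 genes were lower and 115 higher, and the same counts of members and list genes were called. Libraries with the same number had correlations of 0.12, 0.022 and 0.0058 between their deviations from the group means (across genes, which are not independent replicates). Such correlations cannot decide whether the numbers pair the libraries, and the labels do not say. In 2 of 3 cases the shNT library correlated best with the shGPR81 library of its own number. Total reads are unknown, and MAGED1 in the libraries labelled shGPR81 rests on an estimated 15 to 37 reads per library.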
